A study of Mus musculus with 3 samples.

Results

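Mucins are large glycoproteins whose long serine- and threonine-rich stretches carry dense O-linked sugar chains. Membrane mucins span the plasma membrane of epithelial cells and form the glycocalyx that keeps the wet surface of the eye slippery and closed to particles, and some of them signal through their short inner tails. Gel-forming mucins are secreted, link into networks and thicken the tear film. At the eye they come from goblet cells of the conjunctiva, and the cornea itself has no goblet cells. Mucins of both kinds are routinely followed in dry eye.

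The genes described here are 6 membrane mucins (Muc1, Muc4, Muc13, Muc15, Muc16 and Muc20) and 2 gel-forming mucins (Muc5ac and Muc5b). They were taken by symbol and matched by Ensembl ID. All 8 were found among the 30406 Ensembl IDs that the gene lists of 3 libraries share. The WT and KO lists hold 32285 genes and that of KO_PBS 31053, so its annotation may differ. The genes that overlap Muc4, Muc13, Muc15 and Muc20 are in all 3 lists. That does not show that the mucins themselves were annotated alike, so an annotation difference may enter any ratio with KO_PBS. Nuclei were isolated from frozen whole mouse corneas and their RNA was counted per barcode as unique molecular identifiers (UMIs). Each library pooled 5 mice of 7 weeks of age. WT mice were wild type and untreated. KO mice lacked Aire, the thymic regulator of self-antigen expression whose loss gives an autoimmune dry eye, and were untreated. KO_PBS mice also lacked Aire and had received phosphate-buffered saline (PBS) for 14 days. No PBS-treated wild-type library was analysed here. The series text gives a different age, 6 weeks, and treatment day 7. A lacripep arm is named there as well and was not analysed here.

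With 1 library per group there is no replicate and no test. Each value carries an exact 95% Poisson interval that covers counting error only, and differences between mice or between preparations are not in it. A gene was counted as higher or lower between 2 libraries when it had 50 or more UMIs over both, differed at least 2-fold and had intervals that did not overlap. Levels are given as CPM, the UMIs of a gene for every 1000000 UMIs of the library. In whole tissue, fewer cells of a type and less RNA per cell cannot be told apart.

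The libraries held 96587 (WT), 107031 (KO) and 114357 (KO_PBS) barcodes with median totals of 2261, 2980 and 1432 UMIs, and 256852883, 352627863 and 178988562 UMIs in all. Between 2833 and 3379 barcode sequences were shared by any pair of libraries, at most 3.16% of either. The deleted gene does not check the labels: Aire had 15 (WT), 27 (KO) and 68 (KO_PBS) UMIs, or 0.0586, 0.0768 and 0.382 CPM, so that the names below mean the libraries labelled so. Corneal epithelium was plainly present by the level of its 13 markers, but their sum differed, at 51693 (WT), 35884 (KO) and 22865 (KO_PBS) CPM. Krt12, the keratin that defines corneal epithelium, stood at 26121, 13793 and 6205 CPM. Macrophage markers (9 genes, summed) stood at 97.0, 1370 and 1333 CPM, and T cell markers (8 genes) at 7.87, 131 and 126. KO_PBS differed from the other libraries in a broad set of rare transcripts: among genes under 1 CPM in KO, 78.5% were counted as higher in KO_PBS and their median log2 ratio was 2.82.

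Muc1, Muc4 and Muc20 were raised together in 1 cluster of barcodes in all 3 libraries, and their promoters are shown for that reason. RefSeq promoter windows of the build GRCm38.p6 were available for 5 of the 8 mucins. The 250 bases before the start are printed 5′ to 3′ on the gene's strand. They lie at chr3:89228806-89229055 on the plus strand for Muc1, at chr16:32735636-32735885 on the plus strand for Muc4 and at chr16:32797436-32797685 on the minus strand for Muc20. Capitals mark matches to 4 of the motifs searched on both strands.

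Muc1: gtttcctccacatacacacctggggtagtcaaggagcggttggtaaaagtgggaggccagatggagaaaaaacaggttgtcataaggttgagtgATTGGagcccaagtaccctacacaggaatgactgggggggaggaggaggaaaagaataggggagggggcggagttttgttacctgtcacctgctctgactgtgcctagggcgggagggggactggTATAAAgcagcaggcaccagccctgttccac

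Muc4: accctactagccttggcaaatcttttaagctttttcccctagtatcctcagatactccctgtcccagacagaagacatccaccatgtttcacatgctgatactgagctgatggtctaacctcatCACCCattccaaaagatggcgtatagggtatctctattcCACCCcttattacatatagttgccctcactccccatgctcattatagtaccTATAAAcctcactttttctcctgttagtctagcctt

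Muc20: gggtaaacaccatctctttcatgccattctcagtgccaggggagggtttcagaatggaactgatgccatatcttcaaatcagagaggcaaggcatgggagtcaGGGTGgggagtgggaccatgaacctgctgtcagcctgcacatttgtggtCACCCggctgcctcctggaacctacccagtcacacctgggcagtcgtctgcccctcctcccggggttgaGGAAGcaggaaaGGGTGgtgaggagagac

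A TATAAA box began 31 bases before the start in Muc1 and 36 before it in Muc4, and Muc20 had none in this window. This motif was present in 12.4% of 32851 promoter windows of the same length. CACCC, the core of the sites of Krüppel-like factors, occurred 2 times in Muc4 and 3 times in Muc20, and in 52.0% of all windows. Muc1 held CCAAT, read on the other strand as ATTGG, which 33.8% of windows had. Muc20 held GGAAG, a core that ETS-family factors such as Elf3 can bind, as did 64.1% of windows. The motifs TTCNNNGAA (STAT factors, in 7.02% of windows) and AACCGGTT (grainyhead factors, in 0.116%) had no match in these 3 promoters. These matches are letters in a window and say nothing of binding.

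In coordinates of GRCm38, whose GENCODE annotation was used for positions, Muc1 is the smallest of the genes (chr3:89229057-89233381, plus strand). Muc4 (chr16:32735886-32782391, plus) and Muc20 (chr16:32777419-32797435, minus) point at each other, and their last 4973 bases overlap on opposite strands. Muc13 lies on the same chromosome (chr16:33794037-33819934, plus). Muc15 (chr2:110721340-110739527, plus) lies wholly inside Ano3, which runs on the other strand. Muc16 (chr9:18495455-18674530, minus) is the longest, at 179 kb. Muc5ac (chr7:141788972-141819231, plus) and Muc5b (chr7:141839070-141873084, plus) are neighbours. Whether counting used strand is not given in the sources used here, and without strand the reads of Muc4 and Muc20 in their overlap, or of Muc15 and Ano3, cannot be told apart. Ano3, an anoctamin, was low at 3.27 (WT), 3.89 (KO) and 8.59 (KO_PBS) CPM.

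Membrane mucins made up nearly all RNA of the 8 mucins in every library, and most of it was from Muc4. The 6 membrane mucins summed to 466 (WT), 668 (KO) and 562 (KO_PBS) CPM. The 2 gel-forming mucins summed to 2.29, 0.376 and 2.61. There were therefore 204 membrane mucin UMIs for each gel-forming one in WT (95% interval 188 to 221), 1778 in KO (1500 to 2126) and 215 in KO_PBS (197 to 236). The KO ratio stood apart from the other two, whose intervals overlap. Muc4 held 70.3%, 68.0% and 66.4% of the membrane mucin UMIs, and Muc5ac 76.4%, 77.3% and 75.6% of the gel-forming ones, so these shares differed little. The share of Muc15 was 19.4% (WT), 20.9% (KO) and 8.25% (KO_PBS).

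**Figure D1:**
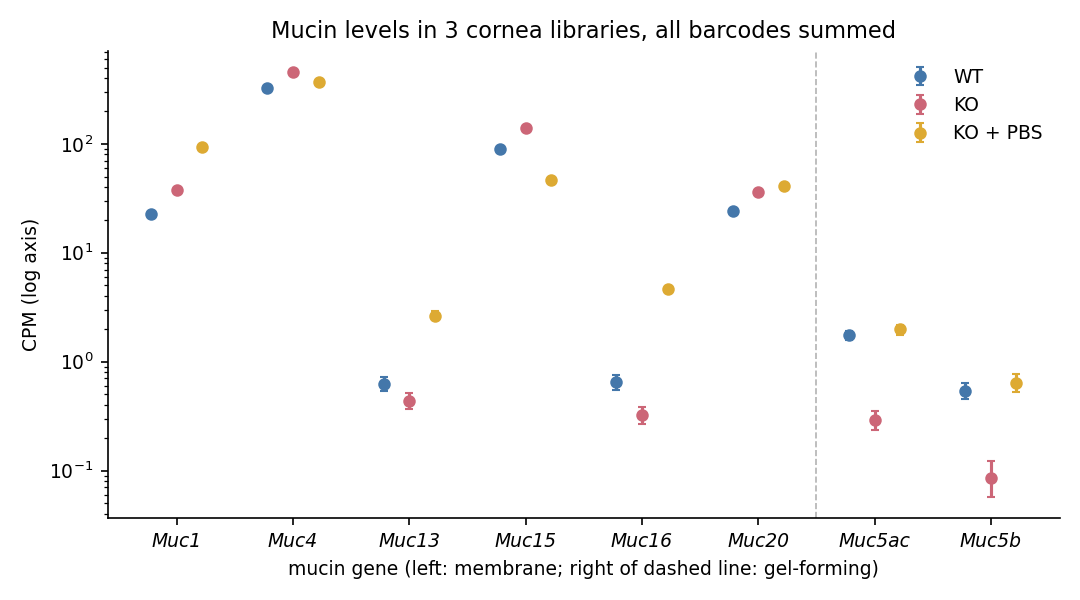
CPM (log axis) of the 8 mucins in the WT, KO and KO_PBS libraries, all barcodes summed; bars are exact 95% Poisson intervals, which cover counting error only and are smaller than the points for Muc1, Muc4, Muc15 and Muc20. Muc4 lies between 327 and 454 in all 3 libraries, while Muc5ac and Muc5b are lowest in KO.

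Because longer genes can yield more nuclear UMIs, levels of different mucins were compared per length. Muc1, Muc4, Muc15 and Muc20 held the first 4 places in every library, both per kilobase of exon and per kilobase of gene. Per kilobase of exon, Muc4 stood at 27.8 CPM in WT, Muc15 at 25.3, Muc1 at 9.58 and Muc20 at 6.05. In KO_PBS the order was Muc1 (40.2), Muc4 (31.7), Muc15 (12.98) and Muc20 (10.1). The gel-forming Muc5ac reached 0.162 per kilobase of exon in WT and Muc16 0.0246. The order within the first 4 changed with the length used: per kilobase of gene, Muc1 came before Muc15 in WT.

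Muc4, a very large membrane mucin that can bind the receptor ErbB2, had 83797, 159649 and 66336 UMIs in WT, KO and KO_PBS, that is 327, 454 and 373 CPM. KO was highest, at 1.39 times WT, and KO_PBS lay between the others. None of these differences reached 2-fold.

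Muc1, the widely expressed mucin with a signalling tail, stood at 22.5 (WT), 37.4 (KO) and 94.4 (KO_PBS) CPM. The level was lowest in WT and highest in KO_PBS, with no overlap of intervals. KO_PBS exceeded KO 2.52-fold and WT 4.198-fold, while KO against WT, at 1.66-fold, stayed below 2-fold.

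Muc20, a membrane mucin known to bind the receptor Met, stood at 24.4, 36.2 and 40.8 CPM. WT was lowest and the 2 KO libraries were close, with KO_PBS 1.13 times KO. Muc15, a membrane mucin of epithelia and glands, stood at 90.3, 139 and 46.3 CPM. It was highest in KO and lowest in KO_PBS, 3.01-fold apart, and KO_PBS was 1.95-fold below WT, just short of 2-fold. Ano3, in whose gene Muc15 lies, did not share that direction, since it was highest in KO_PBS.

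Muc13 and Muc16 were rare. Muc13, a mucin best known from the gut, had 160, 153 and 469 UMIs (0.625, 0.435 and 2.64 CPM). Muc16, the largest membrane mucin of the human ocular surface, had 166, 113 and 829 UMIs (0.649, 0.322 and 4.66 CPM). Both were far above their other values in KO_PBS, where most of the rare genes compared were higher.

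Muc5ac, the main gel-forming mucin of conjunctival goblet cells, had 447 (WT), 102 (KO) and 351 (KO_PBS) UMIs (1.75, 0.290 and 1.97 CPM). Muc5b, its neighbour and relative, had 138, 30 and 113 UMIs (0.539, 0.0854 and 0.635 CPM). Both were low in KO alone, and their WT and KO_PBS intervals overlapped.

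Untreated KO against WT asks how loss of Aire changed mucin RNA. Of the 8 mucins 0 were counted as higher, against 20.6% of the 20252 genes compared, and 3 as lower, against 8.63%. The 3 lower ones were Muc5ac (log2 ratio -2.59, interval -2.91 to -2.28), Muc5b (-2.66, -3.28 to -2.08) and Muc16 (-1.01, -1.37 to -0.66). Muc16 passed only just, at 2.02-fold, and its direction turned in the 25% of barcodes with the fewest UMIs, where the log2 ratio was 0.15 on 14 and 9 UMIs. Part of its WT count lay in a cluster, described below, that held 0 KO barcodes. Muc13 was -0.52. The remaining 4, Muc1 (0.73), Muc15 (0.63), Muc20 (0.57) and Muc4 (0.47), were all higher in KO by less than 2-fold. Genes of 20 to 500 CPM in WT had a median log2 ratio of 0.18, with 11.1% counted as higher.

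The gel-forming pair was near the lower end of all genes compared. Only 0.755% of genes had a lower log2 ratio than Muc5ac and 0.662% a lower one than Muc5b. Among genes under 2 CPM in WT, 17.2% were counted as lower and the median log2 ratio was 0.07. A gene rare in WT can reach 50 UMIs through KO alone, so this share is lowered and this median raised. Of 9 markers of conjunctival epithelium, 4 were counted as lower in KO and 1 as higher, against 8.63% and 20.6% of all genes, and their summed level was 13316 CPM in WT and 6043 in KO. Those 4 were Psca (2950 to 733), Aqp5 (9303 to 4640), Krt19 (281 to 123) and Krt8 (50.04 to 24.7). Aqp5 alone made up most of that sum in both libraries. The summed level of the 13 corneal epithelium markers fell as well, from 51693 to 35884 CPM, with 1 counted as lower and 2 as higher. The fall of the conjunctival sum is therefore not particular to that list. The amount of conjunctiva taken with each cornea is not given in the sources used here, and its part in the low gel-forming level was not tested.

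KO_PBS against KO asks how PBS drops differ from no treatment in mice without Aire. Of the 8 mucins 5 were counted as higher, against 39.9% of 22416 genes, and 1 as lower, against 4.7%. Muc1 (log2 ratio 1.33, interval 1.30 to 1.37) and Muc15 (-1.59, -1.62 to -1.56) changed in opposite directions. Both belong to genes of 20 to 500 CPM in KO, whose median log2 ratio was 0.07 and of which 5.53% were counted as higher and 4.18% as lower. Of all genes compared, 66.1% had a lower log2 ratio than Muc1 and 2.70% a lower one than Muc15. Muc4 (-0.28) and Muc20 (0.17) stayed within 2-fold. Muc20 turned to -0.46 when ratios were centred on the median gene, whose own log2 ratio was 0.63, and Muc1 then fell short of 2-fold at 0.70.

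The 4 rare mucins were also counted as higher in KO_PBS than in KO: Muc16 at 3.86, Muc5b at 2.90, Muc5ac at 2.77 and Muc13 at 2.60. Among genes under 1 CPM in KO, 78.5% were counted as higher, with a median log2 ratio of 2.82. Both values are raised, because a gene rare in KO can reach 50 UMIs through KO_PBS alone. Muc5ac, Muc5b and Muc13 lay close to that median and Muc16 above it. Of the conjunctival markers, 4 of 9 were counted as higher and 1 as lower, against 39.9% and 4.7% of all genes. The 4 were Psca (733 to 2070 CPM), Krt7 (45.8 to 107), Krt8 (24.7 to 80.8) and Gabrp (0.529 to 2.11). Krt7 and Krt8 belong to genes of 20 to 500 CPM in KO, of which 5.53% were higher. Krt13, Krt4 and Krt19 rose by less than 2-fold. Aqp5 was lower (4640 to 1895), and Slc6a14 went from 120 to 106. The sum of the 9 went from 6043 to 5028 CPM, and Aqp5 alone fell by more than that. The higher Muc5ac and Muc5b of KO_PBS and the rise of most rare genes compared cannot be told apart in these libraries. The part of conjunctiva in the higher Muc5ac and Muc5b was not tested.

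Muc1, Muc13 and Muc16 were the 3 mucins counted as higher in KO_PBS than in WT, against 57% of 22138 genes, and 0 were counted as lower, against 4.06%. Their log2 ratios were 2.07 (interval 2.03 to 2.11), 2.08 (1.81 to 2.34) and 2.85 (2.60 to 3.09). Muc1 again stood above the median of genes of 20 to 500 CPM in WT, which was 0.30, and 19% of those genes were higher. At 22.5 CPM in WT it lies near the lower edge of that range. Of all genes compared, 66.1% had a lower log2 ratio than Muc1. Genes under 1 CPM in WT, where Muc13, Muc16 and Muc5b belong, had a median of 2.60 and 84.7% were higher, and those under 2 CPM, which takes in Muc5ac, had a median of 2.51. Muc5ac (0.18), Muc5b (0.24), Muc4 (0.19) and Muc20 (0.74) lay within 2-fold. Ratios of the gel-forming pair lay below these medians. The medians are raised, since a gene rare in WT can reach 50 UMIs through KO_PBS alone. Under 1 CPM in WT, 8233 genes were compared with KO_PBS and 6347 with KO. How the pair stands against genes of its own level is therefore not read from them. The median gene moved by 1.27. Centring on it turned Muc5ac, Muc5b, Muc4 and Muc20 negative, to -1.09, -1.03, -1.08 and -0.53. Totals without the 50 most abundant genes turned Muc5ac, Muc5b and Muc4 alone (-0.15, -0.086 and -0.14). Centring brought the count to 1 higher (Muc16) and 4 lower, since Muc1 (0.80) and Muc13 (0.81) then fell short of 2-fold, against 29.6% and 23.1% of genes. Muc15 was lower before centring (-0.96) and after it (-2.23). The 2 comparisons with KO_PBS use the same library, and those with KO likewise, so they are not independent.

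Apart from Muc4, most membrane mucin UMIs were spread thinly over barcodes. In WT, Muc1 UMIs came 1 to a barcode in 5065 of the 5394 barcodes that had any, and Muc20 UMIs in 5689 of 5951. Barcodes with 2 or more UMIs held 63.6% (WT), 78.6% (KO) and 52.5% (KO_PBS) of those of Muc4. It reached 29 UMIs in 1 WT barcode, 41 in 1 KO barcode and 60 in 1 KO_PBS barcode. The 25% of barcodes with the fewest UMIs gave levels of the abundant mucins close to those of the whole library: Muc4 stood at 334, 501 and 313 CPM there, Muc1 at 23.0, 40.0 and 104, and Muc15 at 82.6, 149 and 41.8. Muc16 in WT was lower there, at 0.244 CPM (interval 0.112 to 0.463) against 0.649 (0.554 to 0.755). These barcodes are not shown to be empty, and 97.0% of them in KO and 80.4% in KO_PBS passed a filter on genes, mitochondrial UMIs and total UMIs, against 0% in WT. The limit on total UMIs was 10% of the 99th percentile among the 10000 deepest barcodes of each library, so it differed between libraries. Their profile was used as each library's reference.

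To find where mucins stood above that reference, the 18214 barcodes that passed this filter and whose profile departed from it (a deviance score of 10 or more) were clustered without the 8 mucins. Of the 23 clusters, 9 could be named from markers, and 13 had at least 90% of their barcodes from 1 library. Cluster and library sums of at least 20 barcodes numbered 43. Doublets were not removed.

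At this score, Muc4, Muc1 and Muc20 were together counted as above the reference in 1 cluster, and it was so in all 3 libraries. Its leading genes were Lce3a, Prss22 and Crct1, with Slc5a1, Psca, Hbegf and Krt23 among the first 20, and no marker list named it. Its barcodes numbered 186 (WT), 38 (KO) and 578 (KO_PBS). Krt12 stood there at 1.08, 1.06 and 1.01 times its reference level, and the conjunctival marker Krt13 at 2.17, 3.28 and 2.55 times. Psca is on the conjunctival marker list too, as is Slc6a14, a leading gene of this cluster when the score was set at 20. Other conjunctival keratins did not follow throughout. Krt4 was at 0.819, 1.64 and 0.976 times, Krt19 at 0.998, 2.47 and 1.499 times and Krt8 at 1.02, 1.61 and 0.834 times.

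In the cluster led by Lce3a, Muc4 stood at 1046 CPM in WT, 1080 in KO and 2264 in KO_PBS, against references of 334, 501 and 313. That is a log2 ratio of 1.65 (interval 1.56 to 1.73), 1.11 (0.94 to 1.28) and 2.86 (2.80 to 2.91). Muc1 stood at 54.3, 158 and 425 CPM, with log2 ratios of 1.24 (0.86 to 1.60), 1.98 (1.51 to 2.42) and 2.04 (1.92 to 2.15) over its reference. Muc20 stood at 60.02, 117 and 183 CPM, with log2 ratios of 1.23 (0.86 to 1.57), 1.60 (1.04 to 2.11) and 2.00 (1.83 to 2.17). All 9 values passed the rule of size, as did 3.1% (WT), 2.04% (KO) and 7.08% (KO_PBS) of genes in this cluster. Muc15 did not follow, at 63.3, 162 and 58.8 CPM, or 0.766, 1.08 and 1.41 times its reference. Muc16 had 1, 0 and 1 UMIs there. Muc13 had 0, 0 and 19, and in KO_PBS it was counted as higher, at 9.71 against 2.62 CPM. With departing barcodes set at a score of 20, Muc1 and Muc20 in WT had log2 ratios of 0.67 and 0.89 and no longer passed, and KO had 3 barcodes, too few for a value.

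Elf3, an ETS factor of surface epithelia, was also high in that cluster, at 728, 598 and 1261 CPM or 3.20, 2.17 and 4.60 times its reference. Muc4 and Muc20 share 4973 bases on opposite strands at their ends, and how far reads of the overlap add to the common pattern of these 2 genes was not tested. Muc1 lies on another chromosome and overlaps no annotated gene.

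The conjunctival epithelium-like cluster, led by Krt15, Krt4 and Krt19, had 81 (WT), 3 (KO) and 237 (KO_PBS) barcodes. Muc1 stood at 69.8 CPM there in WT and 476 in KO_PBS, or 3.04 and 4.60 times its reference. Muc4 was at its reference in WT (350 against 334) and 4.45 times above it in KO_PBS (1392 against 313). Muc20 was not counted as higher there. With departing barcodes set at a score of 20, however, Muc20 in KO_PBS stood at 96.6 CPM (interval 70.2 to 130) against 45.5. Muc1 (426) and Muc4 (1395) were also more than 2-fold above their references in that setting. In WT, with 21 barcodes, Muc4 (213) and Muc20 (10.5) were then not above theirs. Muc13 had 17 UMIs in KO_PBS (20.6 CPM against 2.62) and 1 in WT. Muc15 in WT was below its reference, at 38.6 against 82.6. With 2.32% of genes counted as higher in WT and 11.2% in KO_PBS, and 1 library per group, cells and library cannot be told apart in this difference. Krt12 in the cluster was 0.454 and 0.491 times its reference.

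In most other clusters, membrane mucins were at or below the reference. Across the 43 sums, Muc4 was counted as higher in 4 and lower in 0, Muc1 as higher in 5 and lower in 3, and Muc20 as higher in 3 and lower in 4. Over all genes and sums, 8.44% of values were counted as higher and 1.29% as lower. Muc15 was counted as higher in 0 and as lower in 3, 2 of them in the corneal endothelium-like cluster led by Car3. Muc13 was counted as higher in 2 and Muc16 in 0, with 0 and 6 lower. For these genes no WT or KO sum reached the 50 UMIs that the rule needs. Their references held 27 (WT) and 23 (KO) Muc13 UMIs and 9 and 14 Muc16 UMIs, so only KO_PBS sums could be counted. Every higher call of Muc1, Muc4, Muc13 and Muc20 was in the cluster led by Lce3a or the one led by Krt15. The unnamed cluster led by Frmd4a and Trp63, a factor of basal epithelium, had Muc4 at 284 CPM in WT, 409 in KO and 331 in KO_PBS, or 0.850, 0.817 and 1.06 times the reference. In the KO-only cluster led by Sprr2d, a cornified-envelope gene, Muc1 stood at 55.9 CPM, 1.40 times its reference.

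**Figure D2:**
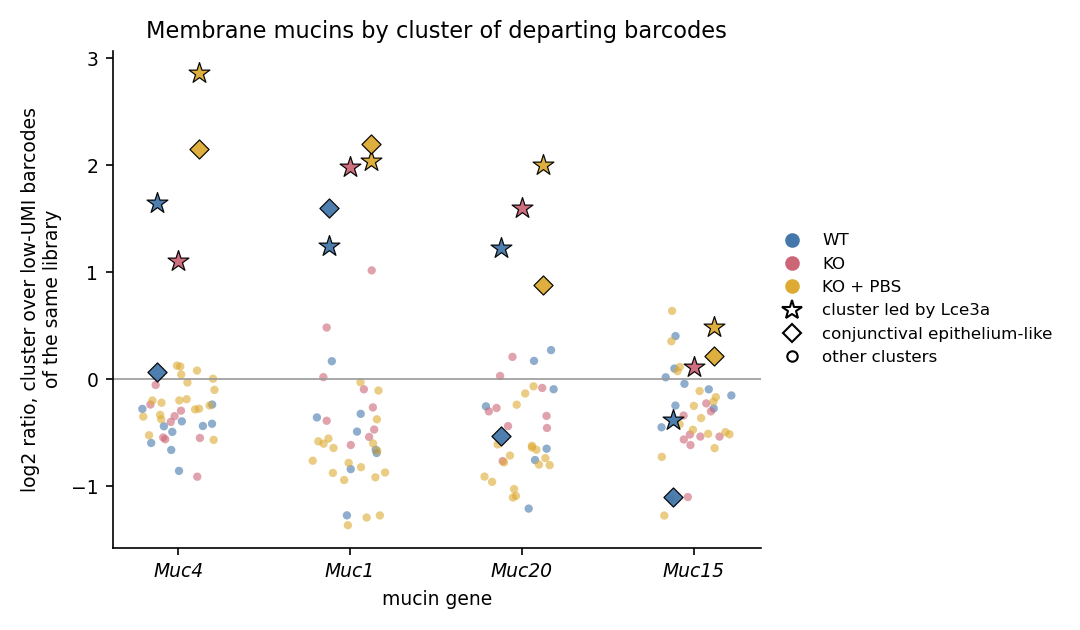
Log2 ratio of each mucin's CPM in a cluster of departing barcodes over the low-UMI barcodes of the same library, for Muc4, Muc1, Muc20 and Muc15 and sums of at least 20 barcodes with at least 3 UMIs of the gene; horizontal scatter within a gene is for legibility. Stars (cluster led by Lce3a) lie between 1.11 and 2.86 for Muc4, Muc1 and Muc20, and between -0.38 and 0.49 for Muc15; diamonds are the conjunctival epithelium-like cluster.

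The rare membrane mucins of WT had more UMIs in another cluster. Of the 166 Muc16 UMIs, 32 lay in the 211 barcodes of a cluster led by Galntl6, Lingo2 and Grm7, long genes best known from neurons, which is 28.5 CPM (interval 19.5 to 40.2). Its reference was 0.244 CPM. Muc13 had 9 UMIs there, or 8.02 CPM against 0.732. Neither reached the 50 UMIs that the rule of size needs. In KO_PBS the same cluster had 56 barcodes and 2 Muc16 UMIs, and in KO it had 0 barcodes. Departing barcodes held 36.1% of the Muc16 UMIs of WT with 8.15% of all UMIs, but 10.6% of those of KO_PBS with 18.2% of all UMIs. The high Muc16 of KO_PBS was thus mostly outside the clusters, at 5.31 CPM in low-UMI barcodes and 2.73 in departing ones. In barcodes neither departing nor low-UMI, Muc16 stood at 0.490 CPM in WT (interval 0.397 to 0.597) and 0.327 in KO (0.263 to 0.401). These were less than 2-fold apart, so the lower count of Muc16 in KO rests in part on departing WT barcodes.

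The genes whose levels followed a mucin most closely over the 43 sums were listed by Pearson correlation of log2 values, as a description only, because the sums share 3 libraries and their depths. For Muc4 they were Emp1 (r = 0.97), an epithelial membrane protein, Elf3 (0.95) and Mxd1 (0.92), a Myc-network repressor of differentiating epithelium. For Muc1 they were Ifit1bl1 (0.92), Rnpep (0.89) and Tmbim1 (0.87). For Muc20 they were Rab11fip1 (0.81), Sgms2 (0.79) and Dusp5 (0.77). Muc15 had other genes, among them Tgfbi (0.88) and Dsc3 (0.87). The other 4 mucins had 34 to 153 UMIs in these barcodes, too few for such a list.

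Muc5ac was rare, yet a few barcodes held several of its UMIs. Barcodes with 5 or more Muc5ac UMIs numbered 9 (WT), 1 (KO) and 2 (KO_PBS), and no barcode had 5 or more Muc5b UMIs. They held 63 of 447, 10 of 102 and 46 of 351 Muc5ac UMIs, which is 14.1%, 9.80% and 13.1%. The same share for the far more abundant Muc4 was 9.42%, 13.8% and 10.6%. The highest single barcode had 16 (WT), 10 (KO) and 32 (KO_PBS) UMIs. Muc5b was found in 5 of the 12, with 10 UMIs. Leaving the 12 barcodes out changed the log2 ratio of the gel-forming sum in KO against WT from -2.61 to -2.55.

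These 12 barcodes carried other transcripts of goblet cells. Genes of a list of 16 goblet and secretory genes had 29 UMIs in them, against 1.83 at the level of the other barcodes, and 10 of the 12 barcodes had at least 1. Agr2, a disulfide isomerase needed for mucin folding, had 13 UMIs, 45.5 times the level elsewhere (interval 24.2 to 77.9). Tff1, a trefoil peptide secreted with mucins, had 6 UMIs, or 296 times (109 to 645). Spdef, the transcription factor that drives goblet cell maturation, had 3 UMIs, with a ratio of 402 (82.9 to 1175), and Ern2, a stress sensor of mucous cells, 2. Tff2, Tff3, Gcnt3, Clca1, Fcgbp, Zg16, Rep15 and Creb3l4 had 0 UMIs in 33186.

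Muc16 was the only membrane mucin whose interval in the same 12 barcodes lay wholly above the level elsewhere. It had 5 UMIs or 110 times that level (interval 35.8 to 257), 2 of them in WT and 3 in KO_PBS. Muc13 had 0 UMIs and cannot be judged, since its interval reached 113 times. Muc4 had 14 UMIs (1.21 times), Muc15 4 (1.39 times), Muc20 1 and Muc1 4 (3.22 times, interval 0.878 to 8.25). Among genes singled out after their values were seen, Gp2 had 20 UMIs, Itln1 9 and Reg3g 8, each over 200 times the level elsewhere. Gp2, a receptor for bacteria, Itln1, a lectin, and Reg3g, an antimicrobial lectin, are products of mucosal secretory cells. None of the 10 barcodes of WT and KO was among the departing ones, so they lay outside the clusters. The 2 of KO_PBS fell in the vascular endothelium-like cluster (14 Muc5ac UMIs) and in the cluster led by Pld5 (32 UMIs), and these single barcodes account for most of the 15 and 35 Muc5ac UMIs of those clusters. No cluster was goblet cell-like.

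**Figure D3:**
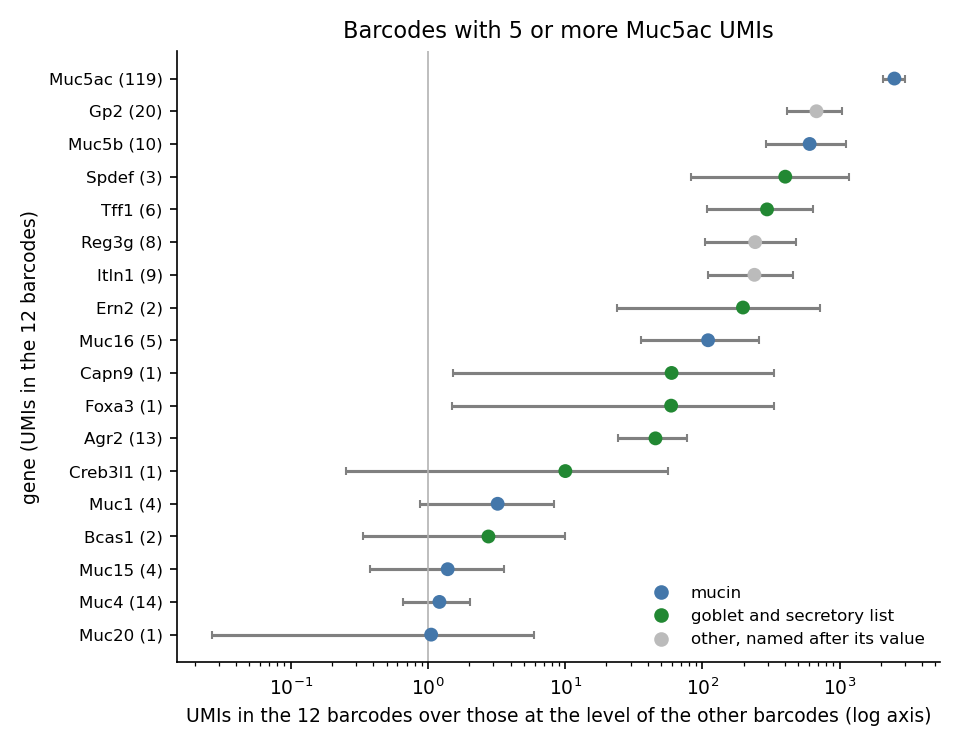
UMIs of each gene in the 12 barcodes with 5 or more Muc5ac UMIs (number in parentheses) divided by the UMIs expected at the level of all other barcodes of the same libraries, log axis, with exact 95% Poisson intervals. Muc5ac is high by selection; Muc5b, Spdef, Tff1, Agr2 and Muc16 lie far above 1, while Muc4, Muc15 and Muc20 lie near 1. Genes with 0 UMIs are not drawn.

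Barcodes with Muc5b had Muc5ac more often than all barcodes of the same library, though most of them had none. Of 131 WT barcodes with a Muc5b UMI, 19 also had Muc5ac, or 14.5%, whereas 0.369% of all WT barcodes had Muc5ac; depth was not matched in this. In KO 2 of 30 Muc5b barcodes had Muc5ac (6.67% against 0.0804% of all), and in KO_PBS 2 of 105 (1.90% against 0.257%). Of the 356 WT barcodes with Muc5ac, 321 had 1 UMI and 26 had 2 to 4.

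Genes that make, carry and release mucins were followed through 7 lists, and the genes with the 2 highest and 2 lowest log2 ratios in KO against WT are named from each, while Podxl and Emcn were named after their values were seen. In the goblet and secretory list, 1 of 12 genes compared was counted as higher in KO than in WT and 2 as lower, against 20.6% and 8.63% of all genes, with a median log2 ratio of -0.21 against 0.24 for all genes. Agr2 (10.4 to 4.52 CPM, log2 ratio -1.20) and Capn9 (0.422 to 0.199, -1.08), a calpain of gastric and goblet cells, were lower. Creb3l1, a transcription factor of the secretory pathway, was higher (1.34 to 4.81, 1.84), and Ern2 was at 0.57. In KO_PBS Agr2 stayed low at 3.82 CPM and Capn9 rose to 0.973, while 9 of 13 genes were counted as higher than in KO and 0 as lower. All 9 were under 1 CPM in KO, where 78.5% of genes compared were counted as higher, a share raised by the UMI minimum.

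O-glycan synthesis starts with the GalNAc transferases of the Galnt family. Of their 13 genes, 2 were counted as higher in KO than in WT and 0 as lower, against 20.6% and 8.63% of all genes. Galnt6 went from 0.176 to 3.33 CPM (log2 ratio 4.24) and Galnt5 from 0.934 to 2.92 (1.64), whereas Galnt3 was at -0.17 and Galnt14 at -0.25. Of 18 enzymes that extend the sugar chain, 11 were counted as higher and 0 as lower, against the same 20.6% and 8.63%. Their median log2 ratio was 1.13, against 0.24 for all genes, and 7 did not pass the rule of size. C1galt1, which makes the core 1 chain, went from 3.88 to 19.6 CPM (2.34), and Gcnt1, which makes core 2 branches, from 0.371 to 4.56 (3.62). B3gnt6, the core 3 enzyme, was at -0.58 and the sialyltransferase St6galnac1 at -0.42. In KO_PBS against KO, 4 of the 18 were counted as higher and 2 as lower, against 39.9% and 4.7% of all genes. Of the 4, St6galnac3 overlaps genes that are only in the WT and KO lists and is uncertain.

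Proteins that bind or release membrane mucins differed in part. The share of all genes counted as higher in KO than in WT, 20.6%, is the background for these lists too. Of 8 glycocalyx partners, 1 was counted as higher: Msn, moesin, which ties membrane proteins to actin, went from 6.31 to 61.4 CPM (log2 ratio 3.28). Lgals3, the galectin that crosslinks mucins at the ocular surface, was at -0.53, Rdx at -0.19 and Egfr at 0.68. Of 6 shedding genes, 4 were counted as higher, among them Mmp9 (0.160 to 1.87 CPM, log2 ratio 3.55) and Adam9 (7.84 to 22.7, 1.53). Adam17, the best known mucin sheddase, was at 0.74 and the inhibitor Timp3 at 0.84. Of 12 regulators compared, 4 were counted as higher, with Il4ra (3.47 to 30.4 CPM, 3.13) and Il13ra1 (11.4 to 46.2, 2.01) first, while Elf3 was at 0.23 and Il4 at -0.38.

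Several of these genes are also active in leukocytes, and all 9 macrophage and all 8 T cell markers were counted as higher in KO than in WT. B or plasma cell markers (8 genes) summed to 18.7 (WT), 13815 (KO) and 1219 (KO_PBS) CPM. Their part in the higher Msn, Il4ra, Mmp9, Gcnt1 and Galnt6 was not tested.

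Other mucin-like genes were compared in the same way. In KO against WT 3 of 7 were counted as higher, against 20.6% of all genes: Parm1 (31.8 to 92.9 CPM, log2 ratio 1.54), a mucin-like membrane protein, Muc2 (13 to 45 UMIs, 1.33), the intestinal gel-forming mucin, and Podxl, whose product coats podocytes and endothelium (1.78 to 3.98, 1.16). Muc6 was at -0.23 and Mucl1 at -0.51. In KO_PBS against KO 7 of 10 were counted as higher and 0 as lower, against 39.9% and 4.7% of all genes. Of the 7, all but Emcn and Podxl were under 1 CPM in KO, where 78.5% of genes compared were higher, a share raised by the UMI minimum. Muc19 was not in every gene list and was not compared.

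**Figure D4:**
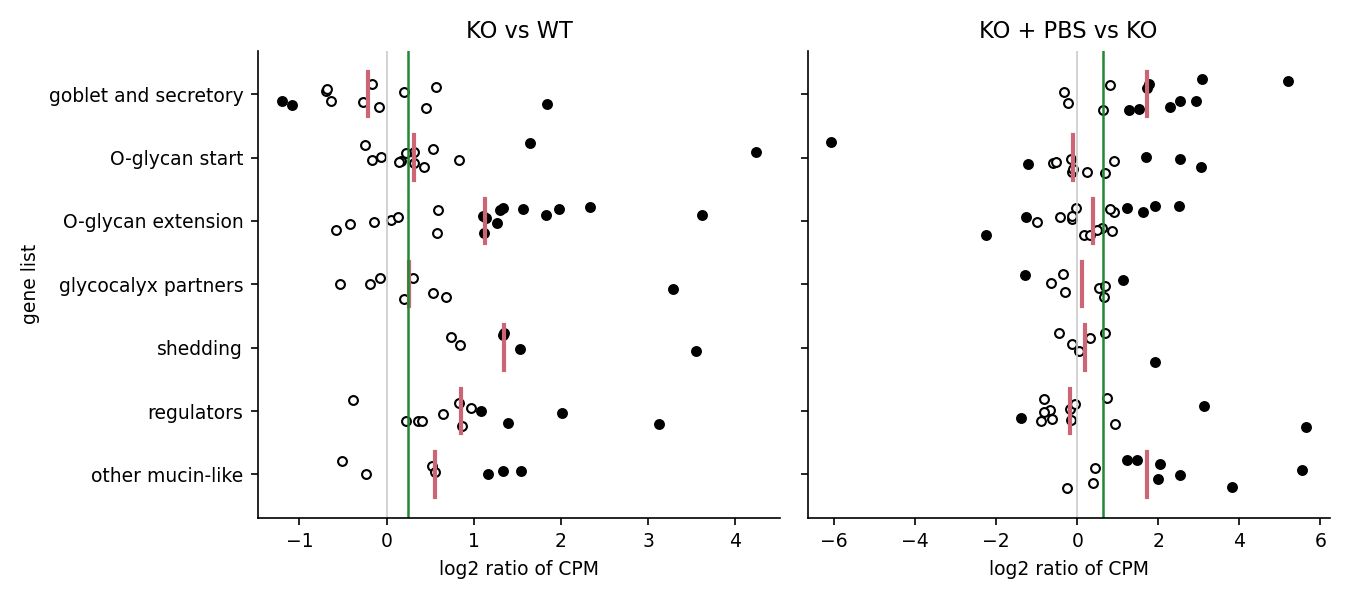
Log2 ratios of CPM for the 7 gene lists in KO vs WT and in KO + PBS vs KO, for genes with 50 or more UMIs over both libraries. Filled points passed the rule of size, red bars are list medians and the green line is the median of all genes compared; the O-glycan extension and shedding lists have medians of 1.13 and 1.34 in KO vs WT. The far left point of the second panel is Galnt2, whose reads another gene listed in KO_PBS alone could take.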

How the data were processed

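The files deposited by the authors hold raw counts, whole UMI numbers of each gene in each barcode, for 3 libraries. Per the file headers they were made with Cell Ranger 7.0.1, on the genome build mm10, per the submitters' processing notes. The annotation, the use of introns and strand, and the barcode filter are not given in the sources used here. Counts were summed over all barcodes, for the 30406 Ensembl IDs in every list (99.3% to 99.6% of UMIs). Counts under 3 were set to 3 in ratios. A low-UMI reference (25% of barcodes), a deviance score per barcode, 3000 variable genes, 30 components, 15 neighbours and Leiden resolution 1 gave the clusters (scanpy 1.11.5). No doublet caller was run. A cluster took a name from 3 or more markers among its 20 leading genes. Named genes: all 8 mucins, the 2 highest and 2 lowest of each list in KO against WT, and the 3 most correlated genes (200 or more UMIs, pseudocount 10), of which 1 is not reported here. The barcode filter asked for 500 genes, at most 5% mitochondrial UMIs and a total of at least 10% of the 99th percentile among the 10000 deepest barcodes of the library. The members and lists were chosen with earlier results of these data known. Positions came from GENCODE on GRCm38 and promoters from RefSeq. Other scalings, barcode sets and cluster settings were tried.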

Additional observations from a re-analysis of the deposited data

How the results depend on the processing

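With 1 library per group no replicate could be left out, and depth limits Muc13, Muc16, Muc5ac and Muc5b, whose libraries hold 30 to 829 UMIs each. No paired analysis was possible because each group has 1 library. The values below are log2 ratios. The membrane mucin sum in KO against WT (0.52) was 0.28 when centred on the median gene, 0.35 with totals that leave out the 50 most abundant genes and 0.64 in low-UMI barcodes. In KO_PBS against KO (-0.25) it was -0.88, -0.41 and -0.51 under the same settings and -0.18 in barcodes with 1000 or more genes. In KO_PBS against WT (0.27) it was -0.999, -0.053 and 0.13, and 0.33 in barcodes with 1000 or more genes. The gel-forming sum in KO against WT (-2.61) was -3.42 in low-UMI barcodes. In KO_PBS against KO (2.80) it was 2.17 when centred and 3.34 in low-UMI barcodes. In KO_PBS against WT (0.19) it was -1.08 when centred, -0.13 without the 50 most abundant genes and -0.076 in low-UMI barcodes. The count of lower mucins in KO against WT was 1 in place of 3 in low-UMI barcodes, where Muc16 (0.15) and Muc5b had fewer than 50 UMIs. In KO_PBS against WT centring gave 1 higher and 4 lower, and leaving out the 50 most abundant genes gave 1 lower. In the cluster led by Lce3a, a score of 20 gave 0.67 for Muc1, 0.89 for Muc20 and 2.05 for Muc4 in WT, where Muc1 and Muc20 no longer passed, and 1.83 for Muc1 in KO_PBS. The cause of these shifts was not tested. The other 60 alternatives of sums, counts and cluster values stayed within their intervals or within 1.5 times the count. Of 144 values of single mucins, 85 stayed within their interval and 11 changed sign. Leaving out the 12 barcodes rich in Muc5ac was chosen after seeing the data.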

Other observations

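Gm9573, which RefSeq also names Muc21 and which was not among the genes chosen, was the closest in level to Muc4 of the mucin-like genes looked at. It stood at 139 CPM in WT, 229 in KO and 377 in KO_PBS, highest in KO_PBS like Muc1. It was among the 20 leading genes of the cluster led by Lce3a, at 497, 658 and 2003 CPM, or 3.45, 2.60 and 4.82 times the low-UMI level of the same library. In the conjunctival epithelium-like cluster it was at 105 CPM in WT and 485 in KO_PBS, 0.732 and 1.17 times that level. It was singled out after its values were seen.

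Levels of the other mucin-like genes were wide apart. Cd164, a small sialomucin, stood at 90.4, 132 and 179 CPM and Parm1 at 31.8, 92.9 and 78.4. Muc3a had 0 (WT), 26 (KO) and 31 (KO_PBS) UMIs, and Mucl2 had 6, 4 and 95. Emcn, the endothelial endomucin, went from 4.31 and 6.19 to 24.5 CPM in KO_PBS, and Podxl from 1.78 and 3.98 to 23.0. These genes were named after their values were seen. Of the cytokines that act on goblet cells, Il4 had 38, 40 and 176 UMIs, and Il13 had 0, 30 and 8. Il4 was counted as higher in KO_PBS than in KO and WT, as were most genes compared at its level.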
